A study of Mus musculus with 6 samples.

Results

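A set of 31 genes of cartilage matrix and of chondrocytes, the cells that make cartilage, was followed in the skull roof of 13del-tg mice and control littermates. They were chosen by name for their place in cartilage: 3 Sox transcription factors, 6 collagen chains, 5 proteoglycans and partners, 5 adaptor proteins, 3 enzymes of sulfated sugar chains, 8 other secreted or membrane proteins and the ubiquitin ligase Wwp2. Of the 31 genes, 29 had a probe set with a single gene name, 28 of these were bright enough to be tested among 12859 genes, and Scrg1 lay below the brightness filter. Xylt1 and Clec3a had no probe set named for them here. Where a gene had several probe sets, the brightest stood for it.

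Parietal bones were taken from mice 10 days old, cut into frozen sections and extracted for RNA, and each sample was measured on 1 array of 45101 probe sets. The labels give 3 biological replicates of the 13del-tg mutant with bone overgrowth, whose mice carry a Col10a1-13del transgene, and 3 of wild-type littermates, called control here; they name no strain and no promoter. The values labelled 13del-tg 1 and control 1 were identical for 45101 of 45101 probe sets, so this array, called the shared array, is shown apart, and 13del-tg 2 and 3 were compared with controls 2 and 3. Values are the authors' intensities on a linear scale, log2 differences were taken after adding 16 to each intensity, and p-values are from limma with Benjamini-Hochberg adjustment over all 12859 genes.

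Cartilage is built on fibrils of type II collagen with types IX and XI on and in them, filled by the sulfated proteoglycan aggrecan, which link protein ties to hyaluronan. SOX9, with SOX5 and SOX6, drives the genes of this matrix in chondrocytes. The parietal bone forms for the most part directly from mesenchyme, without a cartilage template, while cartilage is found in the skull base and in places beneath and between the bones of the roof.

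Col10a1, the collagen X gene that the transgene carries, had 15689 and 11584 in 13del-tg 2 and 3, against 149.8 and 158.2 in controls 2 and 3 and 152.2 on the shared array (log2 difference 6.31, SE 0.22, limma adjusted p = 0.000213). The shared array thus lay at the control level for this gene, against its 13del-tg label. Over the whole array, limma called 2 genes higher and 6 lower in 13del-tg (adjusted p under 0.05), a split that became 1 and 1 with quantile normalization and 3 and 27 with each array centred on its median. Over all genes the differences had a median of -0.074, and of 0.11 after that centring. Xist, the transcript of the inactive X chromosome of female mice, had 57.6 and 15206 in 13del-tg 2 and 3. It had 55.6 and 84.5 in controls 2 and 3 and 29.9 on the shared array, so 13del-tg 3 stood apart from the other 4. With only 1 such array, what goes with Xist and what is otherwise particular to 13del-tg 3 cannot be told apart. Bone markers were bright on every array: Col1a1, the main bone collagen, had 46123 and 48236 in 13del-tg and 42618 and 46275 in controls. Only 2 arrays per genotype limit the precision, and an exact two-sided permutation test of 2 against 2 cannot give a p below 0.333.

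Most cartilage genes had a lower mean in 13del-tg, and none passed the test. Of the 28 tested, 24 had a negative difference, where 58.8% of all genes did, and the median log2 difference was -0.60 against -0.074 over all genes. With arrays centred on the median, 21 of the 28 were negative. The median of the cartilage genes was -0.30 without 13del-tg 3 and -0.16 without control 2, and -0.75 without 13del-tg 2 and -1.02 without control 3. No cartilage gene passed an adjusted p of 0.05 by limma in either direction, where 0.0467% of all genes passed as lower and 0.0156% as higher. The adjusted p-values of the 28 lay between 0.715 and 0.909. At an unadjusted p under 0.05, 2 of the 28 were lower and 0 higher, where 5.31% and 1.49% of all genes were. For 9 of the 28 genes (against 26.3% of all genes) the higher 13del-tg array was under the lower control, and for 2 (against 13.4% of all genes) the lower 13del-tg array was over the higher control. In bulk tissue, fewer chondrocytes and less RNA per chondrocyte cannot be told apart.

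**Figure D1:**
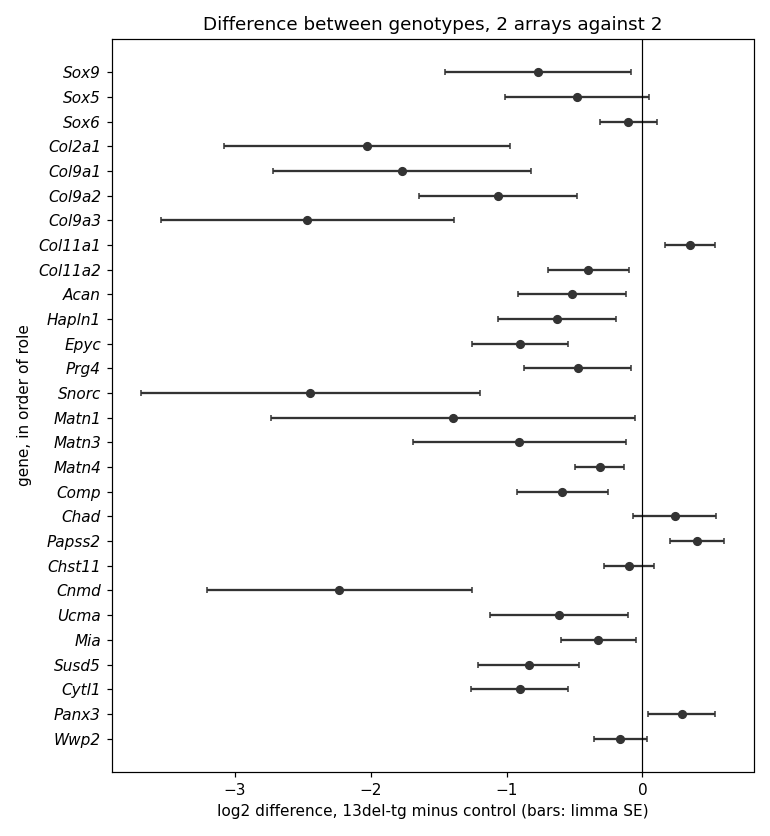
Log2 difference, 13del-tg minus control, on the x axis for the 28 tested cartilage genes, in order of role down the y axis, with bars of 1 limma SE (2 arrays per genotype). Of the 28 points, 24 lie left of 0, and the genes with the most negative values, from -1.77 for Col9a1 to -2.47 for Col9a3, have the widest bars together with Matn1.

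The collagens of cartilage split into a group that differed many-fold between arrays and a pair that did not. Col2a1, the type II collagen chain, had 3803 and 391 in 13del-tg 2 and 3, against 10714 and 2385 in controls 2 and 3, and 4742 on the shared array. Its groups overlapped, with control 3 below 13del-tg 2, and control 2 and 13del-tg 3 stood 26.4-fold apart (here and below, spans and ratios are of the intensity plus 16). The difference between genotypes was -2.03 (SE 1.05, adjusted p = 0.715), -3.64 without 13del-tg 2, -3.11 without control 3, -0.95 without control 2 and -0.41 without 13del-tg 3. Col9a1, a chain of type IX collagen on the fibril surface, had 2274 and 345 in 13del-tg 2 and 3, against 6719 and 1414 in controls 2 and 3, and 3193 on the shared array. This is the same order of all 5 arrays as for Col2a1. Its difference was -1.77 (SE 0.95, adjusted p = 0.716).

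The other type IX chains followed at lower signals. Col9a3 had 305.2 and 14.1 in 13del-tg 2 and 3, against 1039 and 263.5 in controls 2 and 3, and 482.8 on the shared array. Its difference of -2.47 (SE 1.08, adjusted p = 0.715) was the most negative of the 28, but the 14.1 lies far below 61.9, the intensity at which the filter was set, so its size depends on the amount added before taking logs. A second kept probe set of Col9a3 had 229 and 45.9 in 13del-tg 2 and 3, against 640.1 and 44.1 in controls 2 and 3. Its difference was only -0.69, and control 3 was its lowest array. Col9a2 had 153.4 and 49.0 in 13del-tg 2 and 3, against 317 and 128.9 in controls 2 and 3, and 167.5 on the shared array (difference -1.07, SE 0.58, adjusted p = 0.717). For both genes the groups overlapped, since 13del-tg 2 lay above control 3.

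The type XI collagen chains, which sit in the core of the fibril and are also made by bone cells, did not share this order. Col11a1 had 22802 and 19719 in 13del-tg 2 and 3, against 18276 and 15085 in controls 2 and 3, and 13095 on the shared array. Both 13del-tg arrays were above both controls, and the difference was 0.35 (SE 0.19, adjusted p = 0.715); its second probe set had the opposite sign. Col11a2 had 6336 and 4613 in 13del-tg 2 and 3, against 5404 and 9396 in controls 2 and 3, and 3403 on the shared array. Here control 3, low for Col2a1, was the highest array, and the difference was -0.40 (SE 0.30, adjusted p = 0.749). The 5 arrays spanned 1.74-fold for Col11a1 and 2.75-fold for Col11a2.

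**Figure D2:**
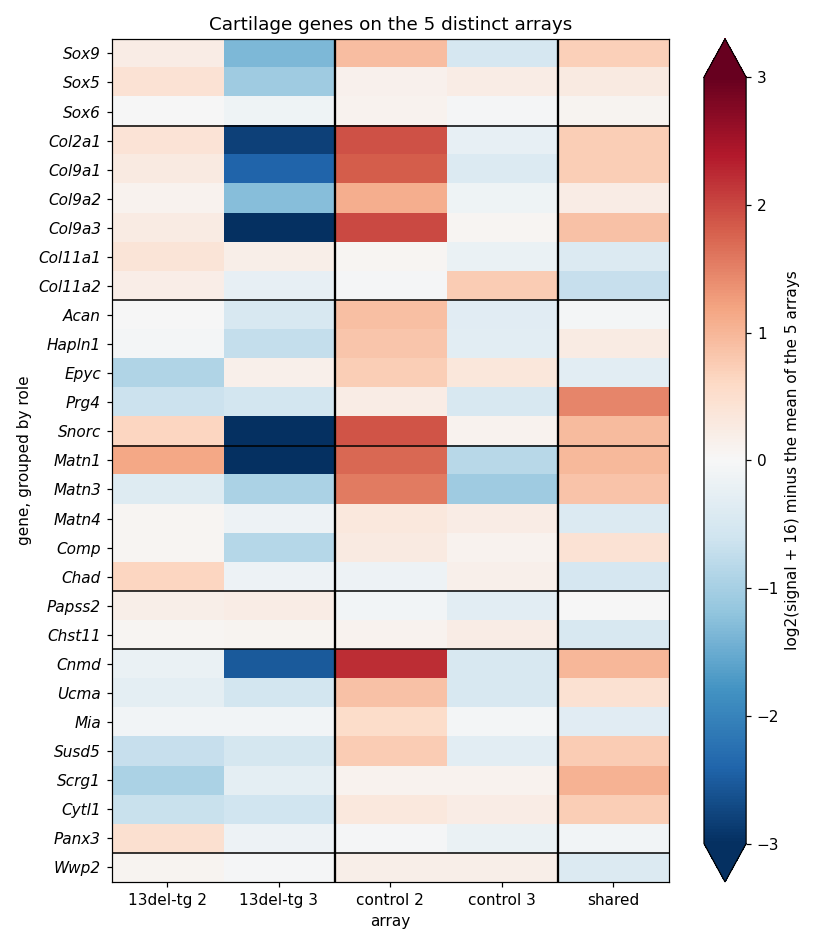
Each row is 1 of the 29 measured cartilage genes, grouped by role between the black lines, and each column 1 array; colour gives log2(signal + 16) minus the mean of the 5 arrays. Col2a1, Col9a1, Col9a3, Snorc, Matn1 and Cnmd are darkest red on control 2 and darkest blue on 13del-tg 3, whereas Sox6, Chst11 and Wwp2 stay pale on every array.

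Sox9, the main activator of cartilage matrix genes, had 101.6 and 23.6 in 13del-tg 2 and 3, against 174 and 55.2 in controls 2 and 3, and 149 on the shared array. It had the array order of Col2a1 at dim signals, 2 of which lay below the filter's level, and a difference of -0.77 (SE 0.68, adjusted p = 0.782), -1.55 without 13del-tg 2 and 0.016 without 13del-tg 3. A second kept probe set of Sox9 had 163.5 and 26.8 in 13del-tg 2 and 3, against 114.7 and 54.1 in controls 2 and 3. It had 42.4 on the shared array, and its difference was -0.13. There 13del-tg 2 was the highest array, so that probe set did not keep the Col2a1 order. Sox5, a partner of SOX9, had 159.8 and 45.8 in 13del-tg 2 and 3, against 124.1 and 135.3 in controls 2 and 3, and 140.1 on the shared array, so that 13del-tg 3 alone was low (difference -0.48, SE 0.53, adjusted p = 0.821). Sox6, the other partner, ran from 767.3 to 905 over all 5 arrays, and its difference of -0.10 (SE 0.21) turned to 0.080 when arrays were centred on the median.

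Among the proteoglycans and their partners, the genes of aggrecan and link protein spanned 2.58-fold and 2.88-fold over the 5 arrays, less than Col2a1 and Col9a1. Acan, which encodes aggrecan, had 1515 and 1099 in 13del-tg 2 and 3, against 2863 and 1201 in controls 2 and 3, and 1484 on the shared array. Control 2 was the 1 array well above the rest, and the difference of -0.52 (SE 0.40, adjusted p = 0.751) became 0.10 without control 2 and -1.14 without control 3. Hapln1, which encodes link protein, had 272 and 166.9 in 13del-tg 2 and 3, against 511.5 and 222.9 in controls 2 and 3, and 340.8 on the shared array (difference -0.63, SE 0.44, adjusted p = 0.736). Snorc, a membrane proteoglycan of chondrocytes, was very dim on 13del-tg 3 and kept the Col2a1 order. Its intensities were 437.4 and 8.7 in 13del-tg 2 and 3, against 1052 and 294.7 in controls 2 and 3, and 540.8 on the shared array, and its difference was -2.44 (SE 1.25, adjusted p = 0.715), -4.54 without 13del-tg 2 and -0.35 without 13del-tg 3. The 8.7 on 13del-tg 3 is again below the filter's level, so the size of this difference depends on the added 16.

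Epyc, a small leucine-rich proteoglycan of cartilage, was 1 of the 2 genes with an unadjusted p under 0.05. Its intensities were 634.1 and 1322 in 13del-tg 2 and 3, against 1983 and 1501 in controls 2 and 3, and 955.6 on the shared array. Both 13del-tg arrays were below both controls, but here 13del-tg 2, not 13del-tg 3, was the lowest array, the reverse of Col2a1. The difference was -0.90 (SE 0.35, unadjusted p = 0.0383, adjusted p = 0.715 by limma). Prg4, which encodes lubricin, a lubricant of joint surfaces, had 81.1 and 88.1 in 13del-tg 2 and 3, against 161.9 and 94.0 in controls 2 and 3, and 405.6 on the shared array, far above the other 4. Its difference was -0.48 (SE 0.39, adjusted p = 0.768), and 0.21 with the shared array counted as 13del-tg.

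The adaptor proteins, which link collagen fibrils to the rest of the matrix, were divided in the same way. Matn1, the matrilin of cartilage, had 624.1 and 19.0 in 13del-tg 2 and 3, against 937.3 and 146.4 in controls 2 and 3, and 550 on the shared array. High and low arrays thus cut across the genotypes, and the difference of -1.39 (SE 1.34, adjusted p = 0.799) was 0.70 without 13del-tg 3 and -3.49 without 13del-tg 2, sizes that depend on the added 16 since 19.0 is below the filter's level. Matn3, a matrilin of growing cartilage, had 124.6 and 78.1 in 13del-tg 2 and 3, against 518.7 and 70.8 in controls 2 and 3, and 313.2 on the shared array (difference -0.91, SE 0.78, adjusted p = 0.774). Its control arrays differed 6.16-fold, which spans both 13del-tg values. Matn4, a more widely made matrilin, had 5549 and 4787 in 13del-tg 2 and 3, against 6628 and 6213 in controls 2 and 3, and 4005 on the shared array, a 1.65-fold span.

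Comp, the pentameric adaptor of cartilage and tendon, had 619.5 and 317.7 in 13del-tg 2 and 3, against 721.4 and 635.4 in controls 2 and 3, and 803 on the shared array (difference -0.59, SE 0.33, adjusted p = 0.717). Chad, which encodes the cell-binding protein chondroadherin, had 1444 and 816.6 in 13del-tg 2 and 3, against 824.3 and 1025 in controls 2 and 3, and 637.1 on the shared array. The controls lay between the 13del-tg arrays, and the difference of 0.24 (SE 0.30, adjusted p = 0.846) turned to -0.015 with the shared array counted as 13del-tg.

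The 2 measured enzymes that make or sulfate the sugar chains of proteoglycans spanned 1.47-fold (Papss2) and 1.64-fold (Chst11) over the 5 arrays. Papss2, which makes the sulfate donor, had 1466 and 1531 in 13del-tg 2 and 3, against 1231 and 1038 in controls 2 and 3, and 1299 on the shared array, with a difference of 0.40 (SE 0.20, adjusted p = 0.715) and another probe set of opposite sign. Chst11, which sulfates chondroitin, had 1921 and 1944 in 13del-tg 2 and 3, against 1985 and 2155 in controls 2 and 3, and 1310 on the shared array. Its difference of -0.097 (SE 0.18) turned to 0.087 with arrays centred on the median. Wwp2, a ubiquitin ligase gene that hosts a chondrocyte microRNA, had -0.16 (SE 0.20), which turned to 0.023 with that centring. Its 4 kept probe sets were all negative before centring, and the dimmer ones had -0.080, -1.08 and -0.73. For the last 2 of these, both 13del-tg arrays were below both controls.

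Of the other secreted and membrane proteins, Cnmd had the most negative difference. This gene encodes chondromodulin, an inhibitor of vessel growth in cartilage, and had 637.1 and 115.1 in 13del-tg 2 and 3, against 3481 and 523.4 in controls 2 and 3, and 1494 on the shared array. Its order of arrays was that of Col2a1, with a 26.7-fold span, and its difference of -2.23 (SE 0.97, adjusted p = 0.715) was -3.58 without control 3, -3.39 without 13del-tg 2, -1.07 without 13del-tg 3 and -0.88 without control 2. Cytl1, a secreted protein of chondrocytes, was the second gene with an unadjusted p under 0.05. It had 60.8 and 64.3 in 13del-tg 2 and 3, against 134.8 and 127.1 in controls 2 and 3, and 187.3 on the shared array. The arrays of a genotype were close to each other and the groups did not overlap (difference -0.90, SE 0.36, unadjusted p = 0.0401, adjusted p = 0.715 by limma), though the signals were near the filter's level of 61.9.

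Susd5 had 318.9 and 360.2 in 13del-tg 2 and 3, against 909.2 and 419 in controls 2 and 3, and 901.2 on the shared array (difference -0.84, SE 0.37, adjusted p = 0.715). Control 3 was much nearer to the 13del-tg arrays than to control 2. Ucma, a secreted Gla-rich protein of cartilage, had 89.3 and 71.5 in 13del-tg 2 and 3, against 220.7 and 75.6 in controls 2 and 3, and 158.9 on the shared array (difference -0.62, SE 0.51). Its second kept probe set had 55.0 and 22.2 in 13del-tg 2 and 3, against 220.9 and 65.7 in controls 2 and 3. There the difference was -1.42 and both 13del-tg arrays were below both controls, at signals under 61.9. Mia, a secreted cartilage protein, had 436.7 and 438.7 in 13del-tg 2 and 3, against 688.9 and 442.1 in controls 2 and 3, and 361.5 on the shared array. In both, control 2 stood above the other 3 compared arrays. Panx3, a channel of osteoblasts and maturing chondrocytes, had 3795 and 2459 in 13del-tg 2 and 3, against 2655 and 2352 in controls 2 and 3, and 2561 on the shared array, with kept probe sets of both signs. Scrg1, below the filter and not tested, had 21.6 and 43.9 in 13del-tg 2 and 3, against 62.2 and 62.5 in controls 2 and 3, and 135.3 on the shared array.

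Several cartilage genes had the same highest and lowest array. Control 2 was the highest and 13del-tg 3 the lowest of the 5 arrays for 12 of the 28 genes, where 5.66% of all genes had these extremes. They were Sox9, Sox6, Col2a1, Col9a1, Col9a2, Col9a3, Acan, Hapln1, Snorc, Matn1, Cnmd and Ucma. Their spans were unlike: the 5 arrays lay within 26.4-fold for Col2a1 but within only 1.18-fold for Sox6, which was almost flat. For all 12, 13del-tg 2 was above control 3, so their genotypes overlapped, and the shared array was above both 13del-tg arrays for 10. By the choice of these extremes, each 13del-tg array also lay below the control of the same number. This order was picked out after the values had been seen, and it is given as a description with no test. The 16 other cartilage genes did not have these extremes. On another kept probe set, Sox9, Sox6, Col9a3 and Hapln1 had a different highest or lowest array. On other kept probe sets of Sox6 and Ucma, 13del-tg 2 lay below control 3.

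Within a genotype, the arrays numbered 2 exceeded those numbered 3 for several of these genes. In 13del-tg the ratio of array 2 to array 3, after adding 16 to each intensity, was 9.38 for Col2a1, 6.34 for Col9a1 and 4.98 for Cnmd. In the controls this ratio was 4.47 for Col2a1, 4.71 for Col9a1 and 6.48 for Cnmd. For 8 of the 28 genes the log2 difference of array 2 minus array 3 was above 1 in both genotypes, where this held for 0.817% of all genes. The 8 were Sox9, Col2a1, Col9a1, Col9a2, Col9a3, Snorc, Matn1 and Cnmd, and for Sox9, Col9a2, Col9a3, Snorc and Matn1 the size is not well measured, since 13del-tg 3 lay below 61.9. For Col2a1 these differences within a genotype, 3.23 in 13del-tg and 2.16 in controls, were larger in size than the difference between the genotypes, -2.03. The labels do not say that a replicate number marks a shared litter or day.

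**Figure D3:**
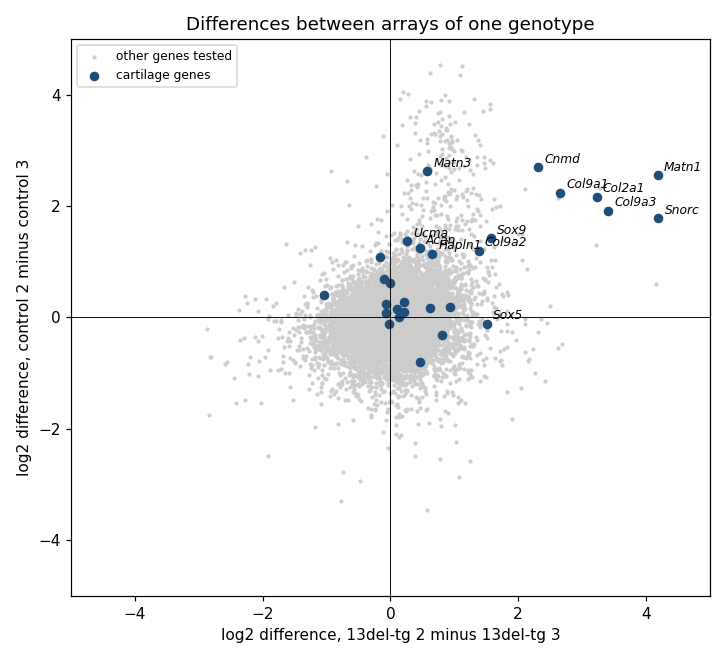
Each point is a gene: the x axis gives log2 of 13del-tg 2 minus 13del-tg 3 and the y axis log2 of control 2 minus control 3, blue for the 28 cartilage genes and grey for the other genes tested; 3 genes lie outside the axes. Matn1, Snorc, Col9a3, Col2a1, Col9a1 and Cnmd lie at the upper right, above 1 on both axes; for Matn1, Snorc and Col9a3 the x value rests on 13del-tg 3 signals below 61.9.

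Markers of neighbouring tissues also differed between arrays, and their part in the cartilage values was not tested. The summed signal of 6 chondrocyte markers (Col2a1, Acan, Sox9, Matn1, Col9a1 and Cnmd) was 8955 and 1993 in 13del-tg 2 and 3, against 24888 and 5725 in controls 2 and 3, and 11612 on the shared array. These 6 are cartilage genes already described, so their sum restates those values and is no separate readout. All 6 had control 2 highest, 13del-tg 3 lowest and a negative difference, and 0 passed the test. The summed signal of 7 skeletal muscle markers was 162803 and 124939 in 13del-tg 2 and 3, against 117786 and 20320 in controls 2 and 3, and 142542 on the shared array. The muscle sum was thus lowest on control 3 and the chondrocyte sum on 13del-tg 3. Of the 7 muscle genes 6 had positive differences, with a median of 1.69, and 0 passed; Ckm, the muscle creatine kinase, had 1.70 (SE 0.73).

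The 6 tendon and ligament markers summed to between 29027 and 32963 in 13del-tg and between 27580 and 37273 in controls. Of their differences 5 of 6 were positive, all but that of Fmod, with 0 past the test. Fmod and Tnmd gave most of each sum. Kera had 3059 and 1768 in 13del-tg 2 and 3, against 1337 and 42.4 in controls 2 and 3. Its difference was 3.06 (SE 1.25, unadjusted p = 0.0437, adjusted p = 0.715 by limma), though 42.4 is below 61.9. Thbs4 had 1280 and 601.7 in 13del-tg 2 and 3, against 747.4 and 102.3 in controls 2 and 3 (difference 1.57, SE 0.80). Both genes were lowest on control 3. Tnmd, a marker of tendon, is the closest relative of Cnmd. Unlike Cnmd, it had 9438 and 9535 in 13del-tg 2 and 3, against 9545 and 6312 in controls 2 and 3. The 6 measured osteoblast markers summed to between 130115 and 142761 in 13del-tg and between 114454 and 126575 in controls, with a median difference of 0.15 and 0 past the test. For the 5 osteocyte markers the sums were between 31006 and 45155 in 13del-tg and between 35496 and 41409 in controls, and 0 of 4 tested passed. Of these 4, 2 were negative and 2 positive. Sost, whose signal is a small part of the sum, had 1264 and 859.2 in 13del-tg 2 and 3, against 3183 and 3431 in controls 2 and 3. Its difference was -1.65 (SE 0.24, adjusted p = 0.109 by limma). The 6 measured erythroid markers summed to between 3059 and 4280 in 13del-tg and between 12358 and 14635 in controls. On the shared array they summed to 8026, between the genotypes. All 5 tested were negative with both 13del-tg arrays below both controls, though 0 passed. Of all genes, 58.8% were negative and 26.3% had both 13del-tg arrays below both controls. The 6 measured brain and meninges markers summed to between 4707 and 7306 in 13del-tg and between 4791 and 5241 in controls, and 1 of them, the synaptic gene Snap25, passed as lower (difference -3.86, SE 0.38, adjusted p = 0.0402 by limma). Snap25 had 18.5 and 33.4 in 13del-tg 2 and 3, against 462.1 and 733 in controls 2 and 3. On the shared array it had 24.2, between the 13del-tg values and below 61.9 as they were.

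**Figure D4:**
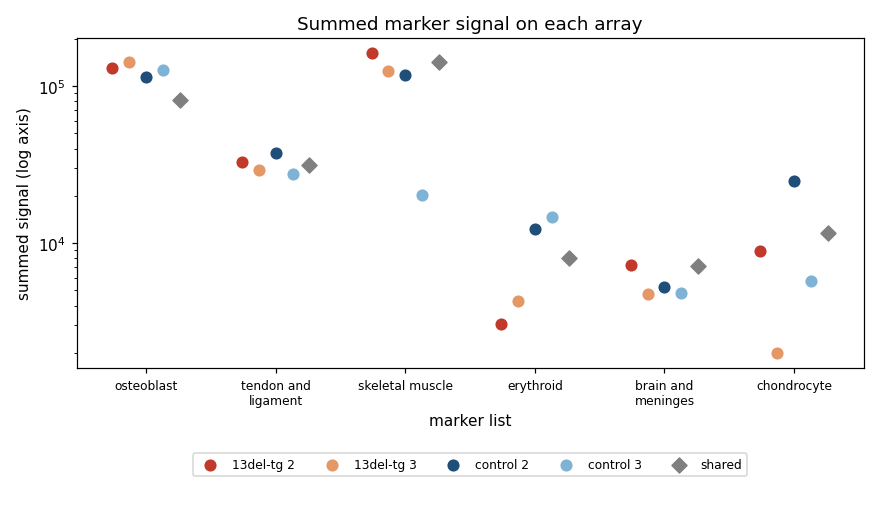
Summed intensity of each marker list on a log axis, 1 point per array, with the 13del-tg arrays left of the controls and the shared array as a grey diamond. The chondrocyte sums, which restate cartilage genes shown above, run from 1993 on 13del-tg 3 to 24888 on control 2, the widest range. The osteoblast sums of the 4 compared arrays lie between 114454 and 142761.

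Hypertrophic chondrocytes are the last stage of the lineage and the normal site of collagen X. Besides Col10a1, the markers of this stage had positive differences that did not pass: Ihh, the hedgehog ligand of prehypertrophic cells, had 0.51 (SE 0.38) at signals of 94.3 and 96.4 in 13del-tg against 56.8 and 68.0 in controls. Mmp13, a collagenase of late chondrocytes and of osteoblasts, had 0.20 (SE 0.23), and Pth1r, the receptor of parathyroid hormone and its related peptide, had 0.13 (SE 0.17). All 4 genes of this list were positive, as were 41.2% of all genes, and the 1 past the test was Col10a1, which the transgene itself carries.

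A further list of 23 cartilage and proteoglycan genes, most of them also active in bone and connective tissue, was nearer to the rest of the genome. Of its 20 tested genes, 14 had a negative and 6 a positive difference, with a median of -0.11, and 0 passed. Vcan, which encodes the proteoglycan versican, had the smallest unadjusted p, with 3525 and 2964 in 13del-tg 2 and 3, against 4285 and 5031 in controls 2 and 3 (difference -0.52, SE 0.19, unadjusted p = 0.0313, adjusted p = 0.715 by limma). Ccn2, a matricellular growth factor, had 0.40 (SE 0.20), and Frzb, a secreted Wnt inhibitor of joint cartilage, had -0.47 (SE 0.37). The growth plate receptor Fgfr3 had -0.25 (SE 0.29), and control 2 was below control 3 for it, unlike for Col2a1.

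Promoters could be read for 21 of the 29 measured genes from RefSeq (build GRCm38.p6), as the 250 bases before the first listed start. SOX proteins bind the minor groove of DNA at short AT-rich sites, and the letters ACAAT and ACAAAG, both strands, were searched. At least 1 of them occurred in 4 of the 21 windows (19%), against 39.4% of 27025 windows of all genes. The windows of 3 genes are shown, in lower case with these letters in capitals. Epyc separated by genotype on the compared arrays only, with the shared array between those of 13del-tg. Hapln1 kept the Col2a1 order. Matn1 had control 2 highest and 13del-tg 3 lowest, and its window holds no match. A match is a description only, and no match says only that these letters are absent from this window.
Epyc, chr10:97643818-97644067, + strand: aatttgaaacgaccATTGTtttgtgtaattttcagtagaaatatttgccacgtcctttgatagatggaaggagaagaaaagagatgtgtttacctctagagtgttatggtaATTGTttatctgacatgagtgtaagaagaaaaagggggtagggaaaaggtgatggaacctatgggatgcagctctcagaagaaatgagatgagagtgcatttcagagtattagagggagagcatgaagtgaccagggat
Hapln1, chr13:89540386-89540635, + strand: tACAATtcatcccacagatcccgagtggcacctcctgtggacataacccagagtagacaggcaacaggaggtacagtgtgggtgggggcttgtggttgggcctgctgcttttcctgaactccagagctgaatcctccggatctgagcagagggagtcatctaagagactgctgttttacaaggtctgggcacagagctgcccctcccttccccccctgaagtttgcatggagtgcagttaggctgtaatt
Matn1, chr4:130944135-130944384, + strand: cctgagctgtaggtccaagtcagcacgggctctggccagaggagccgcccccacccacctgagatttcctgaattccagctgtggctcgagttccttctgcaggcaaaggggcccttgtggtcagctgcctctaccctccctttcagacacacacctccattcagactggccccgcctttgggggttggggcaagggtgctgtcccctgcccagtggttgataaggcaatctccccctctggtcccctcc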

How the data were processed

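Parietal bone RNA of 10-day-old 13del-tg and control mice was amplified to biotin-labelled antisense RNA and hybridized to Affymetrix arrays, per the labels' protocols. The authors deposited linear intensities from MAS5, per the submitters' processing notes, which give no version. A mean trimmed by 2% per end came to 500.003 for every array, so values were used without more normalization. The array deposited under both genotypes was left out of the tests.

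Values were taken as log2(signal + 16). Probe sets with a mean at or above the 40th percentile (61.9) were kept, 64 control probe sets were dropped, and the brightest kept probe set with 1 symbol stood for each gene. Of 45037 other probe sets, 34945 had 1 symbol, 932 several and 9160 none here. Differences were tested with limma 3.58.1 in R 4.3.3 (eBayes with trend, 2 residual degrees of freedom), two-sided, over 12859 genes. On simulated data of 12859 genes, the same fit recovered 4.18% of true log2 changes of size 1, 74.6% of size 2 and 99.4% of size 4. The simulated noise was scaled to the median SE of all genes, 0.26. The cartilage genes had a median SE of 0.38, and Col2a1 had an SE of 1.05. These shares therefore do not hold for the cartilage genes with wide SE. All 31 cartilage genes may be named, and the chondrocyte marker list holds only such genes. Other genes come from marker lists for hypertrophic chondrocytes, osteoblasts, osteocytes, tendon, muscle, erythroid cells, brain and other cartilage genes. From each such list up to 4 genes of smallest unadjusted p, or genes with an intensity of 1000 or more on any array, were open to naming. The genes and lists were chosen with earlier results of these data known. Alternatives changed the pseudocount, filter, normalization, probe set rule, prior, replicate block, the place of the shared array and the arrays included.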

Additional observations from a re-analysis of the deposited data

Results flagged for a closer look

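Prg4 and Scrg1 each had a signal on the shared array, which the comparison does not use, more than 2 times that of every other array. Prg4 had 405.6 there, against 81.1 and 88.1 in 13del-tg 2 and 3 and 161.9 and 94.0 in controls 2 and 3. Scrg1 had 135.3 there, against 21.6 and 43.9 in 13del-tg 2 and 3 and 62.2 and 62.5 in controls 2 and 3. Groups of 2 arrays were too small for a check of outlying samples.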

How the results depend on the processing

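No cartilage gene passed under 16 of 17 alternatives, and 0 passed as higher under any. The 17th, with the replicate number as a block, has 2 pairs, 1 residual degree of freedom and an unlimited prior, and it called 271 genes higher and 338 lower, 8 of them cartilage genes, all lower (Col2a1, Col9a1, Col9a3, Epyc, Snorc, Matn1, Cnmd and Susd5). The labels do not say that the numbers pair the samples, and whether they do was not tested. Over all genes, the differences of array 2 minus array 3 correlated at r = 0.27 between the genotypes, across genes that are not independent. Counts over all genes also moved, to 1 higher and 1 lower with a pseudocount of 1, with the 60th percentile filter and with quantile normalization, 1 and 2 with a pseudocount of 64, and 1 and 0 without a filter, without the trend or with the shared array as control. They were 0 and 0 with it under both labels, 0 higher with it as 13del-tg, 27 lower with centred arrays and 23 lower with the robust prior, and 2 higher and 9 lower with the mean of probe sets. Leaving out 1 array gave 1 to 182 higher and 0 to 50 lower. The median of the cartilage genes was negative throughout, between -0.65 and -0.40 under the alternatives that keep all 4 arrays, and between -1.02 and -0.16 with 1 array left out, with -0.16 without control 2 and -1.02 without control 3. Directions turned for small differences: with centred arrays Sox6 had 0.080, Chst11 0.087 and Wwp2 0.023; with the shared array as control Chst11 had 0.12 and Wwp2 0.036; with it as 13del-tg Prg4 had 0.21 and Chad -0.015. With 1 array left out, Acan ran from -1.14 to 0.10, Matn3 from -2.22 to 0.41, Ucma from -1.30 to 0.068, Col11a2 from -0.80 to 0.00064, Chad from -0.17 to 0.64, Panx3 from -0.023 to 0.60, Sox9 from -1.55 to 0.016, Sox5 from -1.24 to 0.27 and Matn1 from -3.49 to 0.70. The cause was not tested. Signals under 61.9, found on some array for 7 of the 28 genes, limit the size of their differences.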

Other observations

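Beyond cartilage, 97 other genes also had array 2 above array 3 by more than 1 on the log2 scale in both genotypes. Ttr and Ucp1, named after their values were seen, were among those with the largest such differences. Ttr, which encodes the thyroid hormone carrier made by choroid plexus and liver, had 23880 and 109.7 in 13del-tg 2 and 3, against 34721 and 83.1 in controls 2 and 3, and 32.1 on the shared array. The shared array was thus low for Ttr and between the extremes for Col2a1. Ucp1, the uncoupling protein of brown fat, had 268.4 and 13.1 in 13del-tg 2 and 3, against 4286 and 845.1 in controls 2 and 3, and 2171 on the shared array, with control 2 highest and 13del-tg 3 lowest as for Col2a1. Many of the 97 are genes of skeletal muscle, so this trait is not particular to cartilage genes. Among them Actn3 had 7023 and 2657 in 13del-tg 2 and 3, against 3433 and 389.9 in controls 2 and 3, and 7472 on the shared array. Unlike for Col2a1, control 3 was its lowest array and the shared array its highest.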
